A study of Mus musculus with 40 samples.

Results

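Saracatinib, an oral inhibitor of Src family kinases, was compared with its vehicle in the lungs of mice that carried an adenovirus for transforming growth factor β1 (Ad-TGF-β1), 5 mice against 5, which are 10 of the 40 libraries of the series. They were chosen by the labels of stimulation and inhibitor, and the comparison covered the 18834 genes that passed a filter on low counts. C57BL/6 mice, of an age not given in the sources used here, received the vector intranasally. It carries mouse TGF-β1 behind the CMV promoter, so that it is made in whichever cells the virus enters. Saracatinib, at 20 mg/kg, or vehicle was given once a day by gavage from day 10 to day 27 in the design text, or until day 28 in the growth protocol, and the left lungs were taken on day 28. A further 10 lungs received an empty vector (EV) with the same 2 treatments, and bleomycin or saline lungs of the same series served for comparison. The labels name each library by an animal, so p-values measure the spread between mice.

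TGF-β1 is released from a latent complex, binds a receptor kinase and acts through SMAD transcription factors to raise collagens, fibronectin and other matrix genes in fibroblasts. Src family kinases act at focal adhesions and downstream of growth factor receptors, and are studied as drug targets in lung fibrosis for that reason. The circadian clock, which supplied 7 of the 17 genes called here, is a feedback loop. The proteins of Arntl, Clock and Npas2 drive the Per, Cry and Nr1d genes and the output factors Dbp, Tef and Hlf through E-box sequences. The Nr1d proteins in turn repress Arntl, Npas2 and Nfil3 through ROR elements, and Nfil3 opposes Dbp, Tef and Hlf at D-box sequences. These genes cycle over the day in lung, and the sources used here do not give the hour of harvest. A difference in that hour between the saracatinib and vehicle groups cannot be told apart from the drug and was not tested.

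Counts assigned to genes ran from 10.2 to 17.3 M in the 10 lungs. The lung markers Sftpc and Ager, of alveolar type 2 and type 1 cells, were high in each of them, at 2350 to 3293 and 624 to 837 CPM (counts scaled to the library total). Although the labels speak of both sexes, the female transcript Xist had at most 12 counts and the Y-linked Ddx3y 803 to 2004 in the 20 libraries of the vector model. Libraries of saracatinib mice are numbered 1 to 5 here, as are those of vehicle mice. On the first principal component of the 20 libraries, which held 28.9% of the variance, saracatinib mouse 2 stood at 7.18, apart from the other 9 lungs with Ad-TGF-β1 at -40.3 to -15.6. An EV vehicle lung, mouse 1, stood at -15.0, next to those 9, while the other 4 EV vehicle lungs stood at 24.9 to 67.1. The EV saracatinib lungs stood at -7.98 to 33.0. Counts of genes called for the drug in Ad-TGF-β1 lungs are given with and without saracatinib mouse 2 and EV vehicle mouse 1.

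The transgene was measured first. Tgfb1 (chr7:25687002-25705077, GRCm38) stood at 252, 279.8, 223, 139.6 and 225 CPM in the vehicle lungs and at 142, 145, 197, 143 and 172 CPM in the saracatinib lungs. Vehicle mouse 4 lay below the whole saracatinib group, so the groups overlapped. The log2 fold change was -0.49 ± 0.15 (SE) with an adjusted p of 0.361. Against a mean of 68.6 CPM in EV vehicle lungs, Tgfb1 was higher in Ad-TGF-β1 vehicle lungs by 1.71 on the log2 scale, so the vector labels hold. That injury comparison called 25.8% of genes. Reads of the vector and of the mouse's own gene cannot be told apart in these counts.

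In the Ad-TGF-β1 lungs 17 genes, 0.0903% of those tested, differed between saracatinib and vehicle at an adjusted p under 0.05 from edgeR's quasi-likelihood test. Of these, 9 were higher with saracatinib (0.0478%) and 8 lower (0.0425%), while 1649 genes had an unadjusted p under 0.05. The groups did not overlap for any of the 17 genes. Over all genes tested, 288 were higher and 291 lower with no overlap between groups, 3.07% together. Of the 17, 7 belong to the list of 18 clock genes, namely Dbp, Per3, Hlf, Tef and Nr1d2, which rose, and Arntl and Nfil3, which fell. The others have varied functions, and no member of the collagen, Src family or macrophage lists was among them.

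**Figure D1:**
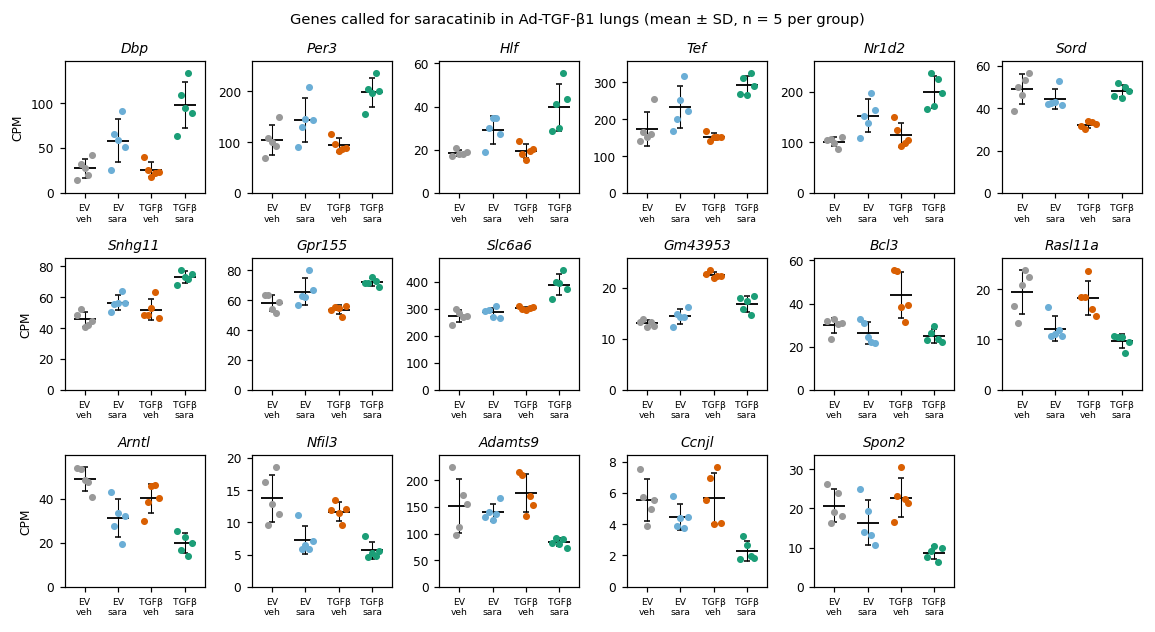
Expression of the 17 called genes in CPM, on linear axes that start at 0, in the lungs given empty vector (EV) or Ad-TGF-β1 (TGFβ) with vehicle (veh) or saracatinib (sara). Points are single mice, lines the mean and bars the SD (n = 5). In each panel, the saracatinib lungs with Ad-TGF-β1 do not overlap the vehicle lungs.

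The 5 promoter sequences below are shown because each belongs to a called clock gene and holds one of the 3 motifs through which the loop works. They are the RefSeq windows on GRCm38.p6 from 250 bases before to 50 after a start site, read 5′ to 3′ on the strand of the gene, with the motif in capitals. Tef (chr15:81802423-81802722, plus strand) holds an E-box, CACGTG, and Per3 (chr4:151044616-151044915, minus strand) holds 2 D-boxes, TTATGTAA. Nr1d2 (chr14:18239057-18239356, minus strand), Arntl (chr7:113207261-113207560, plus strand) and Nfil3 (chr13:52980990-52981289, minus strand) hold the core half-site of a ROR element, AGGTCA, which in Nfil3 lies on the opposite strand and is printed there as its reverse complement TGACCT.
Tef: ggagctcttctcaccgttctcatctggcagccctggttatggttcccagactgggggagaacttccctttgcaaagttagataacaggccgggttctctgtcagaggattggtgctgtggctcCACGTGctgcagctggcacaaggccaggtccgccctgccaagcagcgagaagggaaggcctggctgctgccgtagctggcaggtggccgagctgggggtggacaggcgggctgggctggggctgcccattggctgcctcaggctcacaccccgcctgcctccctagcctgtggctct
Per3: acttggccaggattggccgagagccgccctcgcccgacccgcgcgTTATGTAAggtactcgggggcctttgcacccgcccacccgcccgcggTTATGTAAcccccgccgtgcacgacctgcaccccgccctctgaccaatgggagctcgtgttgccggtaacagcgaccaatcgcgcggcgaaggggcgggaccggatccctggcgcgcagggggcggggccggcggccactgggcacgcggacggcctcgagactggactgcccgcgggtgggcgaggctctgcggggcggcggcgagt
Nr1d2: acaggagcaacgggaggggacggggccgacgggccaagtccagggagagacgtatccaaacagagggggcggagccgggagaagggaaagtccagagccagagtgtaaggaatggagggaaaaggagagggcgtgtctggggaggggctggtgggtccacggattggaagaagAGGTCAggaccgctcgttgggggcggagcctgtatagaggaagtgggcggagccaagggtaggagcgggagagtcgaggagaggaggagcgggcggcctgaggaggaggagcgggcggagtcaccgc
Arntl: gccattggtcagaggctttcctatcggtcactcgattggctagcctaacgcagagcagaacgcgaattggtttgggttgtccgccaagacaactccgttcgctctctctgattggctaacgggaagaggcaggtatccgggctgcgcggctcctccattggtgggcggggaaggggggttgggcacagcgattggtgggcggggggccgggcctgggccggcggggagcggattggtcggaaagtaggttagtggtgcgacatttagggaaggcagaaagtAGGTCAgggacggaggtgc
Nfil3: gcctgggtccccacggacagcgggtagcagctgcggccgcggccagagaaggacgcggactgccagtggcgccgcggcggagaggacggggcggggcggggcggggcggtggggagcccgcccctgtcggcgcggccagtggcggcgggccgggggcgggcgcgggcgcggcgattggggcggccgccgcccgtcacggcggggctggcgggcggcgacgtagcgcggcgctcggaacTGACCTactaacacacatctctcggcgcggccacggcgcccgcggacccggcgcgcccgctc
Both strands were searched. Of 32851 such windows, 7.15% held the E-box, 0.938% the D-box and 16.3% the ROR half-site. The windows of Dbp and Hlf, and another window of Arntl, held none of these letters, while another window of Tef also held the E-box. A match describes the sequence and no binding was measured.

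Among the outputs of the clock, the largest change was that of Dbp, a PAR bZIP transcription factor that sets the daily rhythm of many metabolic genes. Dbp (chr7:45705088-45710203) stood at 39.7, 26.1, 17.4, 22.1 and 23.2 CPM in vehicle lungs and at 63.7, 109, 95, 133 and 89.3 CPM in saracatinib lungs. The lowest saracatinib lung, mouse 1, was above the highest vehicle lung, also numbered 1. Its mean rose from 25.7 ± 8.42 to 97.9 ± 25.5 CPM (SD, n = 5), a log2 fold change of 1.92 ± 0.31 (SE, adjusted p = 0.0238).

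The other PAR bZIP factors moved with it. Tef (chr15:81802421-81826863) stood at 168, 140.4, 153, 152 and 152 CPM in vehicle lungs and at 268, 312, 266, 324 and 290 CPM in saracatinib lungs. Every saracatinib lung was well above every vehicle lung, and the log2 fold change was 0.93 ± 0.15 (SE, adjusted p = 0.0238). Hlf (chr11:90336536-90390895) stood at 24.3, 18.3, 15.4, 19.2 and 20.5 CPM with vehicle and at 28.8, 41.2, 30.0, 55.4 and 43.3 CPM with saracatinib. The groups again did not overlap, although saracatinib mouse 1 came close to vehicle mouse 1, and Hlf rose by 1.02 ± 0.17 (SE, adjusted p = 0.0303) on the log2 scale.

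Their opponent moved the other way. Nfil3 (chr13:52967209-52981073), the repressor that binds the same D-boxes, stood at 11.9, 13.4, 11.4, 9.52 and 12.1 CPM in vehicle lungs and at 7.89, 4.63, 5.28, 4.72 and 5.62 CPM in saracatinib lungs. All saracatinib lungs were below all vehicle lungs. The log2 fold change was -1.05 ± 0.20 (SE, adjusted p = 0.0465).

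Of the negative limb of the loop, Per3 and Nr1d2 rose. Per3 (chr4:151003652-151044665), a period gene, stood at 117, 96.7, 81.9, 87.1 and 87.5 CPM with vehicle and at 155, 203, 196, 235 and 200 CPM with saracatinib, a log2 fold change of 1.07 ± 0.19 (SE, adjusted p = 0.034). Nr1d2 (chr14:18204054-18239127), which encodes the repressor REV-ERBβ, stood at 150.5, 125, 93.4, 99.5 and 104 CPM with vehicle and at 166, 236, 171, 225 and 198 CPM with saracatinib, a log2 fold change of 0.80 ± 0.15 (SE, adjusted p = 0.0348). In both genes saracatinib mouse 1 was the lowest of its group and vehicle mouse 1 the highest of its own. The remaining members of this limb did not pass the test in the main edgeR fit of 20 libraries. Nr1d1 had a log2 fold change of 0.81 ± 0.18 (adjusted p = 0.152), Cry2 of 0.46 ± 0.10 (0.147), Per2 of 0.59 ± 0.21 (0.445) and Bhlhe41 of 0.82 ± 0.18 (0.111), each with no overlap between groups. Per1 (0.17 ± 0.23), Cry1 (-0.13 ± 0.10) and Ciart (0.26 ± 0.18) overlapped.

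In the positive limb, Arntl fell. Arntl (chr7:113207465-113314126), which encodes BMAL1, stood at 29.7, 38.6, 45.4, 46.0 and 40.3 CPM with vehicle and at 25.4, 16.8, 22.6, 14.0 and 19.9 CPM with saracatinib. The nearest lungs were again vehicle mouse 1 and saracatinib mouse 1, and the log2 fold change was -1.02 ± 0.18 (SE, adjusted p = 0.034). Npas2, a partner of BMAL1, had a larger log2 fold change of -1.29 ± 0.27 that did not pass (adjusted p = 0.0795), and vehicle mouse 1, at 7.03 CPM, lay below saracatinib mouse 3, at 7.21 CPM. Clock, the other partner, stood at 166 to 170 CPM with vehicle and at 131 to 150 CPM with saracatinib, a log2 fold change of -0.25 ± 0.08 (adjusted p = 0.39).

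Over the 18 clock genes the median log2 fold change was 0.43, against 0.003 over all genes tested. At an unadjusted p under 0.05, 11 were higher and 4 lower, where 4.44% of all genes tested were higher and 4.31% lower. The list holds genes that peak at opposite times, so its median does not give a common direction.

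The same drug effect was measured in 3 other kinds of lung, which share no library with the comparison. In EV lungs Dbp had a log2 fold change of 1.09 ± 0.31, Npas2 of -1.24 ± 0.25, Nfil3 of -0.91 ± 0.20 and Arntl of -0.65 ± 0.18, none of them called. A single gene was called in EV lungs, Adm (0.00531%), named here after its value was seen. In saline lungs Dbp had 1.57 ± 0.44 and Arntl -0.41 ± 0.16, again not called, and 0.0512% of 19529 genes were called. Of the 17 genes called with Ad-TGF-β1, 15 had the same sign in EV lungs, 13 in saline lungs and 11 in bleomycin lungs, against 47.8%, 57.9% and 61.6% of all genes. The interaction of drug and vector was called for no gene by edgeR (0%), with 1933 genes at an unadjusted p under 0.05, 1 gene called by DESeq2 and 413 by limma voom.

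Without EV vehicle mouse 1, edgeR called 1190 genes for the interaction and 1112 for saracatinib in EV lungs. Of the 17 genes, 6 then had a called interaction, which were Sord, Spon2, Adamts9, Ccnjl, Slc6a6 and Gm43953, and no clock gene was among these. The 17 were chosen by the drug effect in Ad-TGF-β1 lungs, which is part of the interaction. Their share therefore cannot be set against that of all genes. Nr1d2 (0.61, adjusted p = 0.0347) and Nfil3 (-0.82, adjusted p = 0.0327) were then called in EV lungs as well. Snhg11 and Rasl11a were called there too. The other 5 of the 7 clock genes were not, with Dbp at 0.94 (adjusted p = 0.0681) and Arntl at -0.60 (adjusted p = 0.0648).

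**Figure D2:**
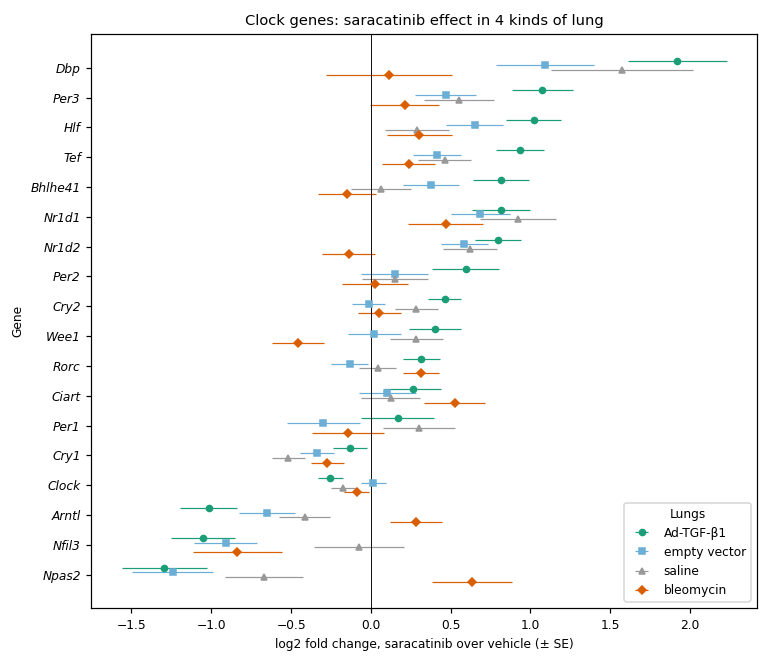
Log2 fold change of saracatinib over vehicle, with its SE, for the 18 clock genes in Ad-TGF-β1, empty vector, saline and bleomycin lungs (5 mice per group). The first 2 come from the fit of 20 libraries and the others from the fit of all 40. Dbp lies at 1.92, 1.09, 1.57 and 0.11 in that order, and Arntl at -1.02, -0.65, -0.41 and 0.28.

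Among the called genes outside the clock, the largest fall was that of Spon2 (chr5:33198184-33218455), a secreted matrix protein of the spondin family. Spon2 stood at 16.6, 23.1, 30.5, 22.4 and 21.3 CPM in vehicle lungs and at 7.71, 9.26, 10.5, 6.21 and 10.0 CPM in saracatinib lungs. The groups lay far apart, and the log2 fold change was -1.38 ± 0.21 (SE, adjusted p = 0.0238). Spon2 was not called for Ad-TGF-β1 against EV, whose vehicle lungs had a mean of 20.8 CPM.

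Adamts9, a secreted protease that cuts the proteoglycans versican and aggrecan, stood at 216, 209, 132, 170.3 and 154 CPM with vehicle and at 82.9, 92.2, 80.7, 89.7 and 73.2 CPM with saracatinib. Its saracatinib lungs were also below the EV vehicle mean of 152 CPM, and it fell by 1.08 ± 0.18 (SE, adjusted p = 0.0238). Bcl3, a nuclear partner of NF-κB, stood at 55.4, 55.0, 38.3, 31.5 and 39.5 CPM with vehicle and at 23.0, 26.3, 29.7, 23.4 and 22.2 CPM with saracatinib. Vehicle mouse 4 and saracatinib mouse 3 were close, and the log2 fold change was -0.82 ± 0.15 (adjusted p = 0.0348). Bcl3 was called higher in Ad-TGF-β1 than in EV vehicle lungs (0.56), a comparison that shares the vehicle libraries with that of the drug.

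Rasl11a, a small GTPase of the Ras family, had a log2 fold change of -0.92 ± 0.17 and stood at 14.7 to 23.6 CPM with vehicle and 7.24 to 10.8 CPM with saracatinib. Ccnjl, a cyclin J-like gene, fell by 1.29 ± 0.22 from a low level of 4.01 to 7.64 CPM to one of 1.79 to 3.25 CPM. The predicted gene Gm43953, a transcript that awaits experimental support in the annotation and was named after its value was seen, stood at 21.8 to 23.4 CPM with vehicle and 14.6 to 18.3 CPM with saracatinib.

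The other genes that rose act in metabolism and transport, with 1 host gene of small RNAs. Sord, sorbitol dehydrogenase of the polyol pathway, stood at 31.4, 30.2, 34.1, 33.2 and 32.3 CPM with vehicle and at 45.5, 51.8, 44.8, 49.9 and 48.1 CPM with saracatinib. The vehicle group was narrow and lay wholly below the drug group, with a log2 fold change of 0.57 ± 0.09 (SE, adjusted p = 0.0238). Sord was called lower in Ad-TGF-β1 than in EV vehicle lungs, whose mean was 48.9 CPM, so that the saracatinib lungs, at a mean of 48.0 CPM, stood near the EV level. Both comparisons share the Ad-TGF-β1 vehicle libraries, so their opposite directions are not independent results. A return to the EV level was not tested. Slc6a6, the taurine transporter, rose by 0.37 ± 0.07, Gpr155, an integral membrane protein, by 0.43 ± 0.08, and Snhg11, a host gene of small nucleolar RNAs, by 0.49 ± 0.08.

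The genes of scar tissue that follow did not pass the test in the main edgeR fit of 20 libraries. Col1a1 stood at 931, 908, 765, 668 and 849 CPM with vehicle and at 614, 752, 983, 708 and 644 CPM with saracatinib, and the groups overlapped widely, at a log2 fold change of -0.15 ± 0.13 (SE, adjusted p = 0.747). Fn1, fibronectin, stood at 1014, 1035, 763, 722 and 880 CPM with vehicle and at 597, 586, 638, 760 and 735 CPM with saracatinib, at -0.41 ± 0.21 (SE, adjusted p = 0.593). Both saracatinib mouse 4 and mouse 5 lay within the vehicle range for Fn1. Tnc, the matrix protein tenascin C, had no overlap, with 59.6 to 101 CPM against 44.6 to 52.2 CPM, and -0.63 ± 0.15 (SE, adjusted p = 0.223). Fn1 and Tnc were called higher in Ad-TGF-β1 than in EV vehicle lungs (0.93 and 1.05), and Col1a1 was not (0.26). In EV vehicle lungs Fn1 stood at 871 CPM in mouse 1 and at 341 to 398 CPM in the others. With EV vehicle mouse 1 left out, edgeR called the interaction of drug and vector for Fn1 (-1.165, adjusted p = 0.00655). It also called Fn1 higher with saracatinib in EV lungs (0.76, adjusted p = 0.0127). Spp1 (0.96, 0.0437), Sftpc (0.52, 0.0334) and Ager (0.47, 0.039) were called higher there too. No other gene of the panel was called in either test. In the main fit Fn1 was called in neither.

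The other genes of the panel overlapped between groups, except Cthrc1. Timp1, an inhibitor of matrix proteases, had a log2 fold change of -0.56 ± 0.20, Col3a1 of -0.21 ± 0.11, Mmp12, the macrophage elastase, of -0.38 ± 0.26, Postn of -0.17 ± 0.21, Spp1 of -0.06 ± 0.37 and the smooth muscle actin Acta2 of -0.07 ± 0.25. Src itself, the kinase the drug binds, stood at 83.0 to 93.2 CPM with vehicle and at 85.1 to 98.8 CPM with saracatinib (0.02 ± 0.07). Cthrc1, a marker of the activated fibroblasts of scars, was not lower with the drug, at 1.48 to 2.04 CPM with vehicle and 2.35 to 2.98 CPM with saracatinib (0.53 ± 0.19, adjusted p = 0.454).

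**Figure D3:**
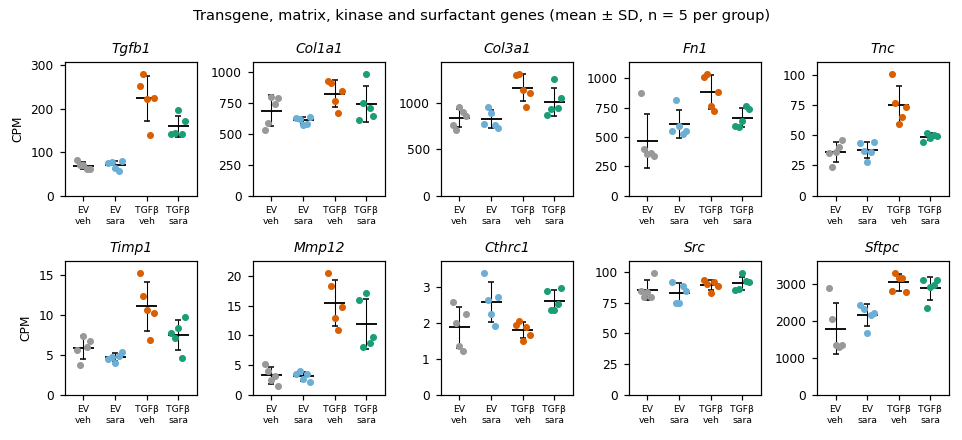
Expression in CPM, on linear axes that start at 0, of the transgene Tgfb1, of matrix genes, of the kinase Src and of the surfactant gene Sftpc in the 4 groups of the vector model. Points are single mice, lines the mean and bars the SD (n = 5). None of these 10 genes was called for saracatinib in Ad-TGF-β1 lungs by the main edgeR fit of 20 libraries.

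The other pathway lists had no called member except Spon2 among 39 matrix glycoproteins. Of 24 collagens, 19 had a negative and 5 a positive log2 fold change, with a median of -0.15 and 6 lower at an unadjusted p under 0.05. Of all genes tested, 9263 of 18834 were negative, and at that p 4.31% were lower and 4.44% higher. The 32 matrix proteases and inhibitors had a median of -0.20, with 10 lower and 2 higher at that p. The called protease Adamts9 is not a member of that list. The 27 targets of TGF-β had a median of -0.12, with 2 lower and 0 higher at it, near the share of all genes. The 19 Src family kinases and regulators had a median of -0.07 and the 25 focal adhesion partners also of -0.07.

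No list of cell type markers held a called gene. In a whole lung, fewer cells of a type and less RNA per cell cannot be told apart. The 17 genes of monocytes and neutrophils had the lowest median of the 52 lists, -0.68, with 16 of 17 below 0 (9263 of 18834 over all genes) and 6 lower at an unadjusted p under 0.05 (4.31% over all genes). Their summed level ran from 374 to 671 CPM with vehicle and from 288 to 515 CPM with saracatinib. S100a8, a calgranulin of neutrophils, stood at 11.6, 13.6, 20.6, 4.56 and 16.2 CPM with vehicle and at 5.47, 2.66, 2.77, 6.37 and 9.01 CPM with saracatinib (-1.33 ± 0.59, adjusted p = 0.542). Vehicle mouse 4 was the one that overlapped the saracatinib lungs. The 20 ciliated cell genes had a median of 0.25 and all 20 were above 0, with summed levels of 936 to 1480 CPM against 1142 to 1481 CPM. All 14 B cell genes were above 0 as well, with a median of 0.28 and summed levels of 214 to 388 CPM against 250 to 418 CPM. Over all genes tested, 9571 of 18834 were above 0. In EV lungs the drug medians were 0.30 for monocytes and neutrophils, -0.45 for ciliated cells and 0.16 for B cells. Members of a list were measured in the same lungs, so a shared sign is not a count of independent results.

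The list of endoplasmic reticulum chaperones and of the response to unfolded proteins had a median of -0.22 over 21 genes. Of these, 9 were lower at an unadjusted p under 0.05, against 4.31% of all genes. Chaperones fold secreted proteins such as collagen, and the list also holds other genes of that response, such as Atf4 and Edem1. Its median for the drug was -0.145 in EV lungs and -0.076 in bleomycin lungs. Hspa5, the chaperone BiP, stood at 550, 680, 505, 433 and 527 CPM with vehicle and at 452, 349, 384, 379 and 440 CPM with saracatinib (-0.43 ± 0.16, adjusted p = 0.463). Serpinh1, the collagen chaperone HSP47, had no overlap, at 256 to 345 CPM against 185 to 234 CPM (-0.55 ± 0.17, adjusted p = 0.39). The 22 genes of the interferon gamma axis were all below 0 (9263 of 18834 over all genes), with a median of -0.34. At an unadjusted p under 0.05, 3 were lower, and summed levels overlapped, at 1705 to 2481 CPM against 1074 to 2163 CPM. Their median for the drug was -0.46 in EV lungs and 0.22 in bleomycin lungs. Cyp1a1, a target of the aryl hydrocarbon receptor, had a log2 fold change of 1.54 ± 0.62, and saracatinib mouse 2 alone stood at 48.9 CPM against 3.35 to 6.70 CPM in the other 4.

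**Figure D4:**
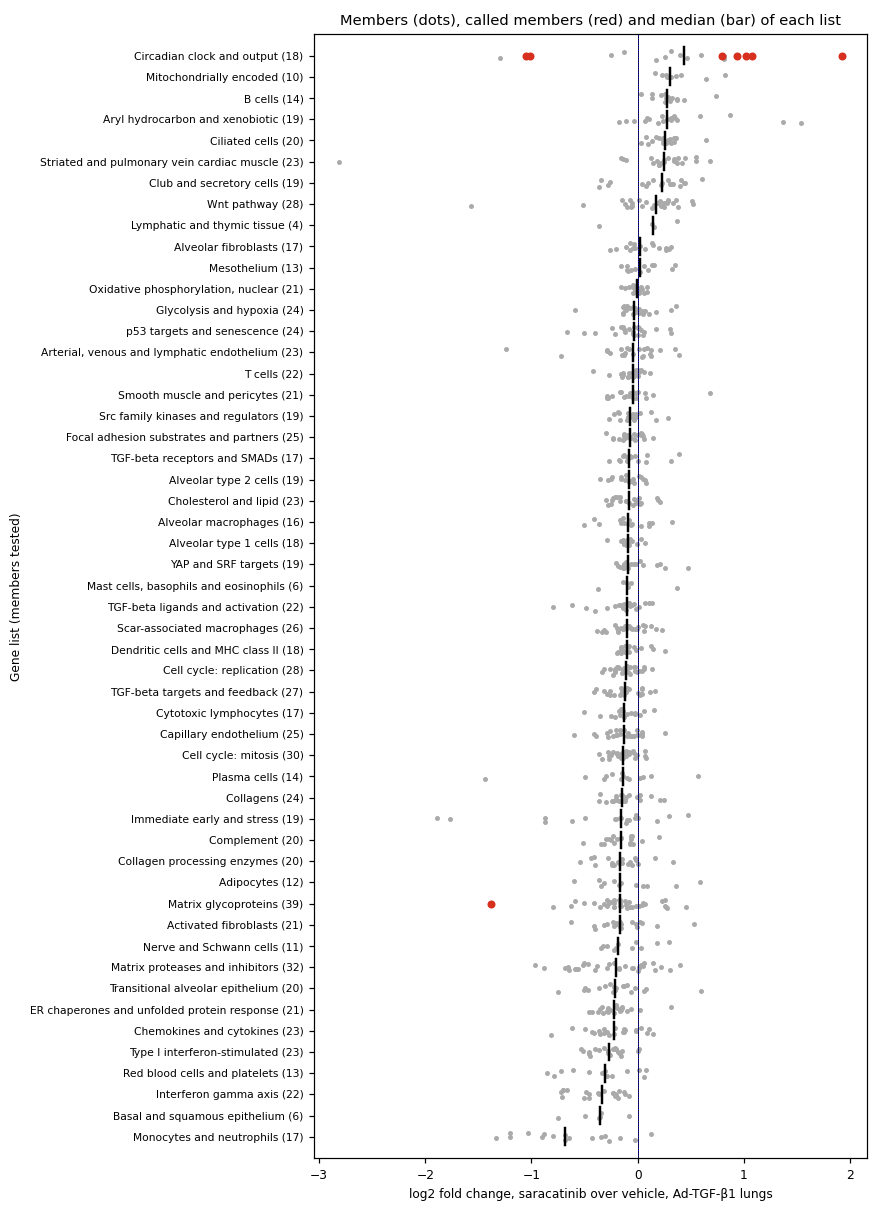
Log2 fold change of saracatinib over vehicle in Ad-TGF-β1 lungs for the members of 52 gene lists (dots), with called members in red, the median of each list as a bar and the median of all genes as a dotted line. Called members lie in the clock list, at the top, and Spon2 among the matrix glycoproteins.

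In bleomycin lungs the same drug called 3662 of 19529 genes (18.8%), 1464 higher and 2198 lower. In the same fit of all 40 libraries it called 10 genes with Ad-TGF-β1. The difference between the drug effects was tested in that fit and was called for 481 genes (2.46%), 276 of them more positive with Ad-TGF-β1 and 205 more negative. Of the 17 genes, 4 were called for the drug in bleomycin lungs. Snhg11 (0.98 ± 0.15), Gm43953 (-0.65 ± 0.15) and the clock gene Nfil3 (-0.84 ± 0.28) had the same direction there, and Slc6a6 (-0.48 ± 0.07) the opposite one. The difference itself was called for 5 of the 17. These genes were chosen by the Ad-TGF-β1 side of that difference, so their share cannot be set against the 2.46% of all genes. Arntl had -1.02 with Ad-TGF-β1 and 0.28 ± 0.16 with bleomycin, a difference of -1.30 ± 0.24 (SE, adjusted p = 0.00669). Nr1d2 had a difference of 0.93 ± 0.24, Spon2 of -1.84 ± 0.26, Ccnjl of -1.77 ± 0.36 and Slc6a6 of 0.84 ± 0.10. Among uncalled clock genes, Npas2, Bhlhe41 and Wee1, a kinase of the cell cycle, also differed.

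The mitosis genes and Col1a1, which fell with the drug in bleomycin lungs, were not called with Ad-TGF-β1. Of 30 mitosis genes, all 30 were lower in bleomycin lungs, with a median of -1.46, while with Ad-TGF-β1 the median was -0.14, and the difference was called for 12. Top2a, a topoisomerase of dividing cells, stood at 50.1 to 65.1 CPM with vehicle and at 36.9 to 66.9 CPM with saracatinib in Ad-TGF-β1 lungs (-0.14 ± 0.25), against -1.58 ± 0.28 with bleomycin. For Col1a1 the difference was 1.24 ± 0.26 (SE, adjusted p = 0.0129), from -0.15 with Ad-TGF-β1 and -1.40 ± 0.19 with bleomycin. For Cthrc1 it was 2.58 ± 0.35 (SE, adjusted p = 0.000145). Levels without the drug were unlike, with a mean of 12.7 CPM for Cthrc1 in bleomycin vehicle lungs and 1.80 CPM in Ad-TGF-β1 vehicle lungs. Ad-TGF-β1 against EV called neither Cthrc1 nor Col1a1 and 0 of the 30 mitosis genes, but called 13 of 24 collagens higher. Whether the starting level bears on the difference was not tested. Thbs2, a matrix glycoprotein, Fst, an inhibitor of activins, Cldn4, an epithelial junction gene, and the photoreceptor gene Rcvrn, near 1 CPM, were also more positive with Ad-TGF-β1. The difference was also called for 7 of 24 collagens, 6 more positive and 1 more negative with Ad-TGF-β1. It was called as more positive for 6 of 21 genes of activated fibroblasts and 6 of 26 of scar-associated macrophages. Over the 18834 genes tested in the vector model, it was called as more positive for 270 and as more negative for 203. The most negative differences belonged to immunoglobulin segments and predicted genes, whose reads can be shared between near copies.

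**Figure D5:**
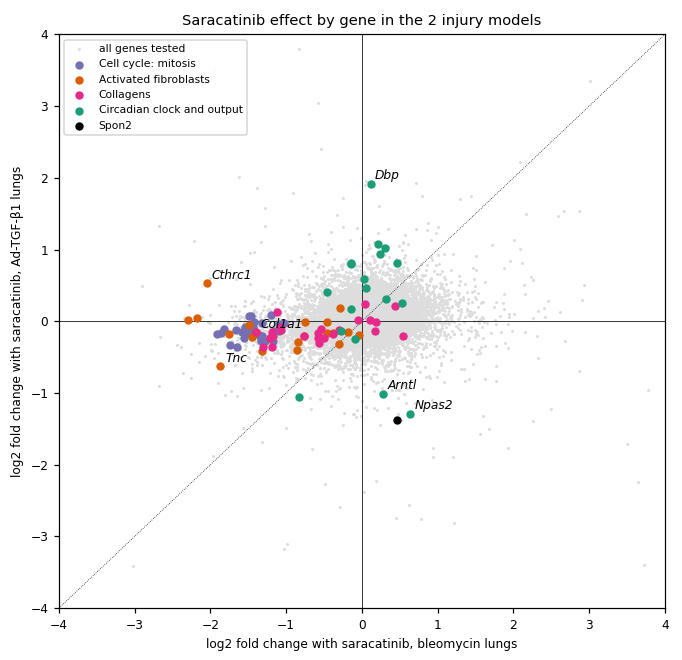
Log2 fold change with saracatinib in bleomycin lungs (x axis) and in Ad-TGF-β1 lungs (y axis), with each gene tested as a grey point 4 lists in colour and Spon2 in black. Mitosis genes spread to the left at a median of -1.46 in bleomycin and -0.14 in Ad-TGF-β1 lungs, clock genes spread along the y axis, and 8 genes lie outside the axes.

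The count of 17 rests on few mice. Without vehicle mouse 2, saracatinib mouse 4 or saracatinib mouse 5, edgeR called 0 genes, with 1096, 1298 and 1578 genes at an unadjusted p under 0.05 and a smallest adjusted p of 0.0889, 0.0682 and 0.0637. It called 3 genes without vehicle mouse 3, 4 without vehicle mouse 5, 10 without vehicle mouse 4, 11 without vehicle mouse 1 and 8 without saracatinib mouse 2. Of the 18 clock genes, 2 were called without saracatinib mouse 2 or vehicle mouse 4 and 0 without vehicle mouse 3 or 5. Without EV vehicle mouse 1 it called 26, the 17 among them. All 17 genes kept their sign with any of the 10 compared lungs left out. Their groups did not overlap, so this outcome was fixed in advance and does not measure stability. Over the 20 fits that left out a library, Dbp ran from 1.80 to 2.14 and Arntl from -1.12 to -0.90. Some of those fits left out an EV lung, which is outside the comparison.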

How the data were processed

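RNA of left lungs was depleted of ribosomal RNA and sequenced from stranded libraries. The aligner was STAR 2.6.1d and the counter featureCounts of Subread 1.6.3, per the submitters' processing notes, which also name Picard, edgeR and the builds mm9 and GRCm38. The deposited tables hold whole-number counts for 55536 genes, and the sources used here do not give the strand setting of the count, so overlapping genes and close paralogs are uncertain. The tables the authors named as TMM normalized held the same counts and were not used. Gene identifiers were joined to GENCODE M21.

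Genes were filtered with filterByExpr by group, scaled by TMM and tested with the quasi-likelihood test of edgeR 4.0.16 in R 4.3.3, with 1 coefficient per group. The 4 groups of the vector model (20 libraries) were fitted together, and all 40 libraries for comparisons with bleomycin and saline lungs. Benjamini-Hochberg adjustment covered every gene tested, and a call needed an adjusted p under 0.05. CPM uses TMM-scaled totals. Total counts of the vector model ran from 9.29 to 17.3 M. Replicates differed by a chi-square per degree of freedom of 5.63 or more, and none was a repeat of another. Tests were tested on simulated data.

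The genes named are a panel of 13, up to 10 called genes per direction, ranked by fold change (groups apart, mean of 1 CPM or more, no predicted-gene name), called list members, and 5 on each side for the difference from bleomycin. Other genes were added after their values were seen. The comparison, the panel and the 52 lists were chosen with earlier results of these data known. Alternatives were dropping the low-count filter, the size factors of DESeq2 in place of TMM, DESeq2 1.42.0, limma 3.58.1 voom with quality weights, only the groups compared and leaving out each library. A fit of all 40 libraries was added after the data were seen.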

Additional observations from a re-analysis of the deposited data

Results flagged for a closer look

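Sftpc in saracatinib mouse 2 stood at 2350 CPM, apart from the next lowest lung of its group at 2907 CPM. This was 1 of 60 groups of 5 libraries examined for a sample far from the others, and chance alone flags about 1 in 20.

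The saracatinib effect differed between Ad-TGF-β1 and bleomycin lungs by edgeR's test of the difference itself for the genes that follow, taken from the panel, the 17 called genes and those with the largest differences. On the log2 scale, Ad-TGF-β1 minus bleomycin, it was 3.33 for Rcvrn, 2.58 for Cthrc1, 2.52 for Thbs2, 2.25 for Cldn4, 2.22 for Fst, 1.24 for Col1a1, 0.93 for Nr1d2 and 0.84 for Slc6a6. It was -7.12 for Igkv3-5, -5.40 for Igkv4-53, -4.74 for Ighv4-1, -2.96 for Gm11274, -2.53 for Gm6213, -1.84 for Spon2, -1.77 for Ccnjl and -1.30 for Arntl.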

How the results depend on the processing

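No paired analysis was possible because the labels give animal codes and no replicate numbers shared between groups. The 9 genes higher and 8 lower became 23 and 28 with DESeq2, 46 and 55 with limma voom and 5 and 5 with all 40 libraries, and of the 17 genes, 17 were called by DESeq2, 17 by limma voom and 9 in the last fit. With only the groups compared, 20 genes were called, 11 of the 17 among them, and Hlf, Nr1d2, Bcl3, Ccnjl, Gm43953 and Slc6a6 were not. That fit also called the collagen chaperone Serpinh1 and the clock genes Clock, Cry2 and Bhlhe41. DESeq2 also called Tnc, the matrix protease Adamts4 and the clock genes Nr1d1, Cry2, Bhlhe41 and Npas2. Leaving out each library gave 0 to 11 higher and 0 to 15 lower. The interaction count of 0 became 1 with DESeq2 and 413 with limma voom, and 0 to 1190 without a library. The EV count of 1 became 0 without the filter, 0 with only the groups compared and 7 with DESeq2, and 0 to 1112 without a library. The 4865 genes of the injury became 3314 to 7127 without a library. The 481 genes that differed from bleomycin lungs became 219 without the filter, 766 with DESeq2 and 106 to 803 without a library. The cause was not tested. Among the named genes, changes of sign occurred only where a library was left out, for Acta2 (-0.207 to 0.0894, with 4.8e-05, 0.0318 and 0.0894 above 0), Spp1 (-0.2001 to 0.0382, with 0.0295, 0.0382 and 0.0125 above 0) and Src (-0.0051 to 0.0466). Over the 17 called genes and the panel, 458 leave-one-out values of the drug effect kept direction and side of the threshold and 135 lost a call. The panel genes had no call to lose, so all 135 belong to the 17 called genes, while the 458 include values of uncalled panel genes. Their calls were kept in 5 of 20 such fits for Gm43953 and in up to 17 of 20, for Sord and Adamts9. Those 20 fits include the ones that left out an EV lung, which is outside the comparison. Gpr155, Rasl11a and Gm43953 lost their call whichever compared lung was left out. For the 10 genes named by rule for the difference from bleomycin, 150 values kept direction and side of the threshold and 50 lost a call.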
